A study of Mus musculus with 13 samples.

Results

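The 5 arrays labelled heterozygous for the STEP knockout were compared with the 4 arrays whose columns are headed WT in the authors' comparison table, which is 9 of the 13 arrays of the study. The arrays were chosen by these column headings. Each array holds striatal RNA, labelled with biotin as cRNA for Affymetrix expression arrays, from a naïve male mouse on the C57Bl/6J background. Per the study's design the wild type animals were littermates of the STEP +/- and STEP -/- mice, and no age, agent or further allele was used from the labels. The remaining 4 arrays, headed HOM, entered only for the shared estimate of the spread and as values side by side. Nothing in the labels says whether the mice came from separate litters, so p-values measure only the spread between these mice.

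The heading WT and the sample records do not name the same animals. After rounding to whole numbers (tolerance 0.5), each column of the comparison table equalled exactly 1 column of the series' value table at 100% of its 4423 probe sets, and the next best column at no more than 1.99%. The 4 columns headed WT equalled the 4 samples recorded as homozygous knockouts, and the 4 columns headed HOM equalled the 4 samples recorded as wild type. The heterozygous columns carried the same name in both. If the sample records are right, the comparison described here is of 1 working Ptpn5 allele against none. The arrays are therefore called heterozygous, WT-headed (recorded homozygous) and HOM-headed (recorded wild type) throughout.

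STEP is a tyrosine phosphatase encoded by Ptpn5 and named for its enrichment in the striatum. It is made in neurons of the striatum, cortex, hippocampus and amygdala. It removes phosphate from tyrosines of the NMDA receptor subunit GluN2B, the AMPA receptor subunit GluA2, the MAP kinases ERK and p38, and the kinases Fyn and Pyk2, and so opposes synaptic strengthening. The striatum consists mainly of inhibitory medium spiny neurons, with a few kinds of interneurons, and lies beneath the cortex, whose deep layers hold excitatory neurons.

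Ptpn5 was measured by 2 probe sets, and both were higher in the heterozygous than in the WT-headed arrays. With probe set 1425130_a_at the intensities in heterozygous arrays 1 to 5 were 1239, 860, 1288, 990 and 761. In WT-headed arrays 1 to 4 they were 364, 585, 559 and 434. The lowest heterozygous array therefore stood above the highest WT-headed array. The difference of mean log2(intensity + 16) was 1.05 ± 0.16 (SE, n = 5 and 4), a 2.07-fold ratio, with an adjusted p of 0.0151 (limma, Benjamini-Hochberg over 45037 probe sets). All differences below have this scale and direction, heterozygous minus WT-headed, and the offset of 16 understates those of dim probe sets.

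The second Ptpn5 probe set, 1423544_at, was brighter and ordered the groups in the same way. Its heterozygous intensities were 2856, 2175, 3142, 2418 and 1924, against 1016, 1537, 1360 and 1134 in the WT-headed arrays. The difference was 0.97 ± 0.14 (SE), a 1.96-fold ratio, with an adjusted p of 0.0124 in limma. In the HOM-headed arrays this probe set read 3882, 3290, 3326 and 3608, all above every heterozygous array, and 1425130_a_at read 1954, 1556, 1452 and 1633, again without overlap. The WT-headed arrays were thus the lowest of the 3 groups at both probe sets, which goes against their heading and with their sample records. Signal remained in all 4 of them, and the position of the probes relative to the altered part of Ptpn5 was not determined here.

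**Figure D1:**
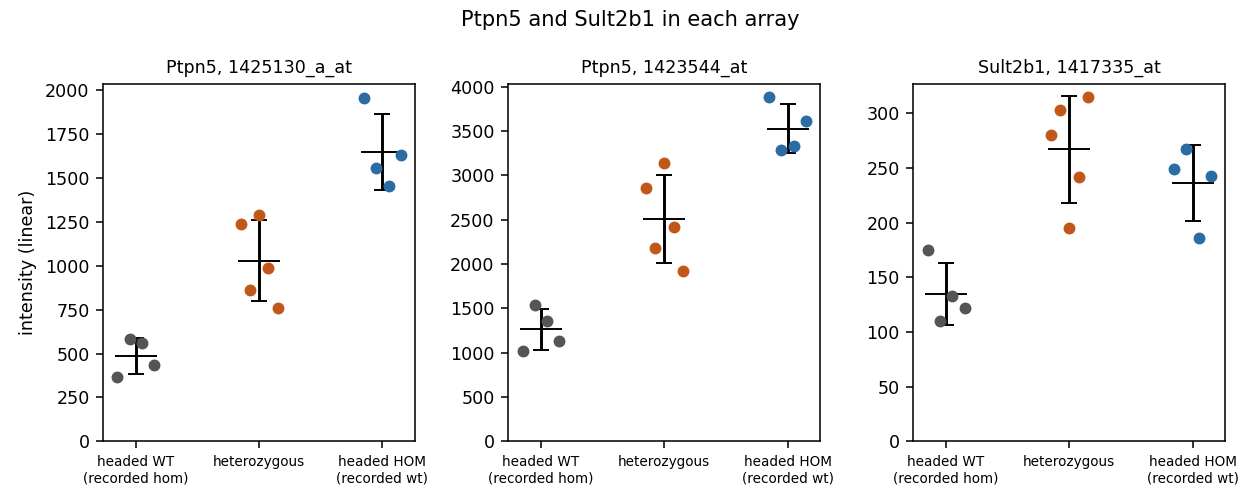
Linear intensity of the 2 Ptpn5 probe sets and of Sult2b1 in each of the 13 arrays, by group as headed and as recorded; points are mice, the long bar is the mean and the whiskers are the SD. Heterozygous arrays lie above the WT-headed arrays in all 3 panels, and lie below the HOM-headed arrays for Ptpn5 alone.

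Sult2b1, a cytosolic sulfotransferase that adds sulfate to cholesterol and other 3-hydroxysteroids, was the only other gene past the adjusted threshold. Its heterozygous intensities were 280, 303, 195, 242 and 315. In the WT-headed arrays they were 175, 110, 133 and 122. The groups did not overlap, and the difference was 0.91 ± 0.15 (SE), a 1.87-fold ratio with an adjusted p of 0.0419 in limma. The HOM-headed arrays read 249, 267, 186 and 243, within the heterozygous range but for the lowest, and the difference from them was 0.16 ± 0.15. Unlike Ptpn5, then, Sult2b1 was low in the WT-headed arrays and overlapped between the heterozygous and HOM-headed arrays. Sult2b1 lies on chromosome 7, as Ptpn5 does, 34 protein-coding genes away in the RefSeq gene table.

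Because the groups do not overlap at these 3 probe sets, an exact two-sided permutation of the 5 and 4 arrays gives each the smallest p the design allows, 0.0159. Any other probe set with separated groups has the same p, so it adds nothing to their choice among all probe sets. The adjusted p of Sult2b1 did not hold under another scaling. It was 0.717 after each array was centred on its median log2 value, with a difference of 0.88, and 0.966 after quantile normalization. Ptpn5 passed under both. Without WT-headed array 4 no probe set passed, and the limma adjusted p was 0.0530 and 0.0576 for the Ptpn5 probe sets and 0.104 for Sult2b1. The fainter Ptpn5 probe set also missed the threshold without heterozygous array 1 or 3 or WT-headed array 1, with adjusted p-values of 0.0553 to 0.0688.

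Across the array, 3 of 45037 probe sets passed the adjusted threshold of 0.05, or 0.00666%, and all 3 were higher in the heterozygous arrays. They are 0.0678% of the comparison table. None was lower, where 277 probe sets had an unadjusted p under 0.05 in limma, or 0.615%, against 921 higher, or 2.04%. Gene symbols are given only for the authors' comparison table, so gene groups can be read only there. The table lists probe sets the authors selected on these same mice. It held 642 of the probe sets higher at an unadjusted p under 0.05 (14.5% of its 4423) and 83 of those lower (1.88%). Outside it the shares were 0.687% and 0.478% of 40614. The median difference was 0.03 over the whole array and 0.14 over the table, so a gene list drawn from the table sits above 0 before any of its members is looked at. The table's median was 0.07 without WT-headed array 1 and 0.19 without heterozygous array 4. The shares of 14.5% and 1.88% are the background for every list count at an unadjusted p under 0.05 below. For positive differences of any size no share is given, so those counts have only the table's median beside them.

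**Figure D2:**
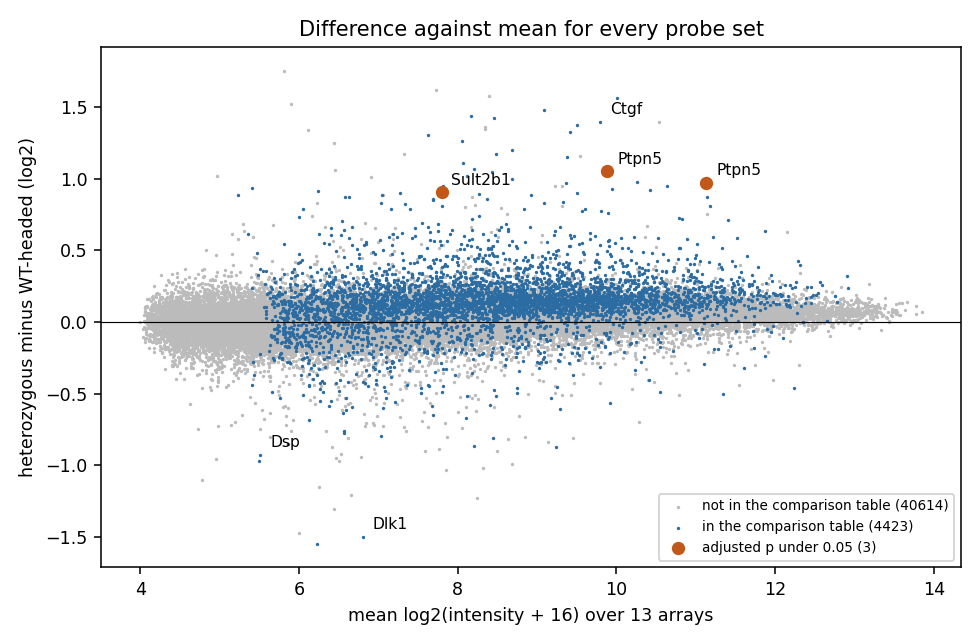
Difference between heterozygous and WT-headed arrays (log2) against mean log2(intensity + 16) over the 13 arrays, for every probe set of the array; blue points are the 4423 of the comparison table and orange points the 3 past the adjusted threshold. The blue cloud is shifted upwards, with a median of 0.14, and no probe set outside the table passed.

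The balance between higher and lower probe sets depended on scaling. Of those with an unadjusted p under 0.05, 76.9% were higher in the heterozygous arrays as deposited, 59.9% after median centring and 52.2% after quantile normalization. Array median intensities ran from 160 to 198 in the heterozygous, 143 to 201 in the WT-headed and 154 to 168 in the HOM-headed arrays. The median correlation of an array with the other 12 was 0.983 to 0.992, and was lowest for WT-headed array 4 and heterozygous array 5. Without these 2 arrays 7 probe sets passed in limma, all higher in the heterozygous arrays, and they belonged to Ptpn5 (2), Ctgf, Mesdc1, Spp1, Gdpd3 and Folh1.

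Among the higher genes that did not pass the adjusted threshold, Ctgf had the smallest p. Ctgf (now Ccn2) encodes a secreted matricellular protein and marks the deepest cortical layer, 6b. It read 1520, 2117, 851, 1362 and 1162 in the heterozygous arrays. In the WT-headed arrays it read 553, 352, 526 and 606. There was no overlap, and the difference was 1.40 ± 0.27 (SE; limma adjusted p = 0.266). The HOM-headed arrays read 645, 1207, 459 and 1712, which spans both groups.

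Ipcef1, whose product interacts with exchange factors of the small GTPase ARF6, had the widest difference of the 10 leading genes, 1.57 ± 0.34. Its heterozygous intensities of 1683, 2422, 1047, 1499 and 2586 overlapped the WT-headed ones of 1292, 412, 382 and 556, since WT-headed array 1 stood above heterozygous array 3. The other leading genes differed by 0.48 to 0.79. Fam163b differed by 0.79 ± 0.17, Dgkg, a diacylglycerol kinase, by 0.64 ± 0.14, and Islr2, a leucine-rich repeat membrane protein of axons, by 0.63 ± 0.13. Col19a1, a collagen, differed by 0.63 ± 0.14 and Etl4 by 0.62 ± 0.13. Nos1ap, an adaptor of neuronal nitric oxide synthase, differed by 0.48 ± 0.11. Their adjusted p-values in limma were 0.380 to 0.621. Groups did not overlap for Dgkg, Islr2, Col19a1, Etl4 and Nos1ap, and heterozygous array 4 overlapped for Fam163b. The same heterozygous arrays were also higher than the HOM-headed arrays, by 0.96 for Ipcef1, 0.84 for Fam163b, 0.52 for Islr2 and 0.51 for Col19a1. For Etl4, Dgkg and Nos1ap this difference was 0.47, 0.33 and 0.30. The WT-headed and HOM-headed ranges overlapped for all of these genes, unlike for Ptpn5.

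Nos1ap was the tightest of these. It read 1694, 2033, 1696, 1754 and 1841 in the heterozygous arrays and 1373, 1353, 1170 and 1262 in the WT-headed arrays. Etl4 read 1114, 1097, 980, 849 and 1049, against 688, 666, 513 and 776. The gap between the closest arrays of the groups was wider than the SD within either group for Nos1ap and narrower for Etl4.

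Several genes of this kind were measured by more than 1 probe set, which share their mice but not their probes. Of 132 genes with 3 or more probe sets in the table, chosen for display after their values were seen, Nfib, Pak7 and Etl4 had every probe set higher without overlap. The background for such separation in the table is 2.4% of probe sets. Nfib, a nuclear factor I transcription factor of the developing and adult forebrain, had 6 of 6, with differences of 0.39 to 0.53. At its probe set 1434102_at the heterozygous arrays read 449, 509, 350, 363 and 422 and the WT-headed arrays 280, 298, 274 and 276. Its relative Nfia had both of its probe sets without overlap, with differences of 0.40 and 0.30. Pak7, a p21-activated kinase of the brain now called Pak5, had 3 of 3 with differences of 0.31 to 0.51. Dgkg had 2 of 3 without overlap, with all 3 differences between 0.59 and 0.67. None of these genes passed the adjusted threshold, the smallest adjusted p for Nfib being 0.621 in limma. Against the HOM-headed arrays the heterozygous arrays were higher too, by 0.37 to 0.47 for Nfib, 0.33 to 0.44 for Pak7 and 0.33 to 0.48 for Dgkg.

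In the lower direction no probe set passed in the fit of all 13 arrays with a single genotype term, and the 10 leading genes differed by -0.40 to -1.50. Dlk1, a Notch-like membrane protein found in neurons of the hypothalamus and septum, had the largest difference, -1.50 ± 0.37 (SE; limma adjusted p = 0.664). It read 118, 31, 168, 38 and 61 in the heterozygous arrays and 143, 438, 208 and 204 in the WT-headed arrays, where only heterozygous array 3 overlapped. Its second probe set differed by -0.43 ± 0.15. In the HOM-headed arrays Dlk1 ranged from 20 to 135.

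Tagln and Tmem114 separated the groups. Tagln (transgelin), which binds actin in smooth muscle, read 305, 208, 261, 237 and 202 against 310, 614, 635 and 337, a difference of -0.86 ± 0.19 with a gap of only a few units between the closest arrays. Tmem114, a claudin-related membrane protein, read 84, 49, 79, 58 and 82 against 88, 161, 171 and 116, a difference of -0.78 ± 0.16. The adjusted p was 0.412 for both in limma. WT-headed arrays 2 and 3 were the high arrays for both genes, and WT-headed array 1 lay beside the heterozygous range.

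The other 7 leading genes had overlapping groups and spanned several roles. Scg2, a granin of secretory vesicles and precursor of secretoneurin, was by far the brightest. It read 5380, 3883, 4826, 4096 and 4105 in the heterozygous arrays and 4667, 7995, 6697 and 5507 in the WT-headed arrays, a difference of -0.46 ± 0.13. Myo3b, a class III myosin, differed by -0.65 ± 0.18, Fgf3, a fibroblast growth factor, by -0.64 ± 0.19, and Pycr1, an enzyme of proline synthesis, by -0.58 ± 0.17. Pim1, a serine/threonine kinase, differed by -0.48 ± 0.14, Irak3, a kinase-like brake on Toll-like receptors, by -0.47 ± 0.13, and Snx31, a sorting nexin, by -0.40 ± 0.13. Myo3b read 110 to 214 in the heterozygous and 192 to 352 in the WT-headed arrays. The rest were dimmer, and Irak3 for example read 41 to 68 in the heterozygous and 64 to 103 in the WT-headed arrays.

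**Figure D3:**
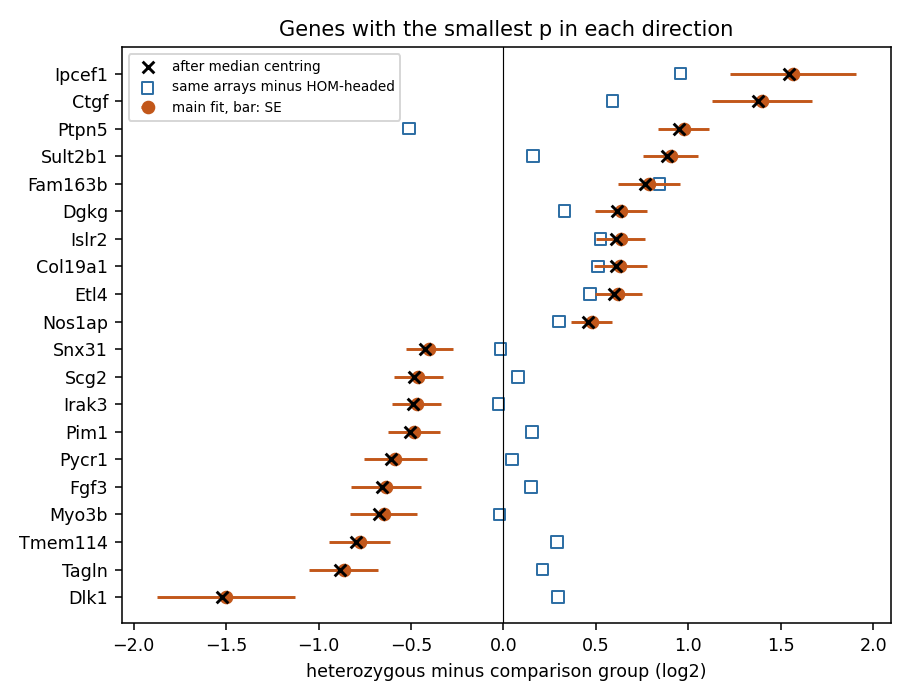
The 10 genes with the smallest p in each direction, as the difference of heterozygous minus WT-headed arrays (log2; orange points with SE bars), the same after median centring (crosses) and the same heterozygous arrays minus the HOM-headed arrays (open squares). Both contrasts share the 5 heterozygous arrays; Ptpn5 is the gene whose square lies on the other side of 0 among the 10 higher genes.

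The smallest p among lower probe sets belonged to a gene below the brightness limit of the naming rule, Dsp, and it was chosen after its values were seen. Dsp encodes desmoplakin, which ties desmosomes to intermediate filaments. At probe set 1435493_at it read 22, 21, 28, 20 and 11 in the heterozygous arrays and 29, 53, 58 and 81 in the WT-headed arrays, a difference of -0.93 ± 0.16 (limma adjusted p = 0.0837). At 1435494_s_at the difference was -0.97 ± 0.20, again without overlap. The partner of desmoplakin in the desmosomal plaque, plakophilin 2 (Pkp2), had 3 probe sets with differences of -0.40 to -0.52 and overlapping groups. The Dsp intensities are close to the offset, so the sizes are understated.

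Only 8 listed probe sets were lower without overlap, or 0.181%, beside 0.0788% outside the table and 0.0888% of the whole array. They belonged to Dsp, which had 2, and to Tagln, Tmem114, Tlr4, Cd274, Irx5 and Fbln1. Tlr4, the receptor for bacterial lipopolysaccharide, read 74, 55, 72, 58 and 63 against 74, 101, 82 and 95, a difference of -0.37 ± 0.12, with its closest arrays apart by less than 1 unit. Its HOM-headed arrays read lower still, at 31, 21, 23 and 20. Cd274, an immune checkpoint ligand, and Fbln1, a matrix protein, differed by -0.25 and -0.35, and Irx5, a homeobox factor, by -0.37. Tlr4, Cd274, Irx5 and Fbln1 were named because the count was small, and none passed the adjusted threshold.

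The widest list differences in the table were in markers of cortical neurons. Cortical excitatory neurons, cells that the striatum does not contain, came with the longer list. Of 20 marker genes 10 were listed, each counted at its brightest probe set, and 9 had a positive difference with an unadjusted p under 0.05, where the table's share is 14.5%. Their median difference was 0.93, beside 0.14 for all listed probe sets. None passed the adjusted threshold. After median centring the median was 0.90. With heterozygous array 5 and WT-headed array 4 left out it was 0.95, with 8 of 10 at an unadjusted p under 0.05, and 5 of 10 when the remaining arrays were also median-centred. With any single array left out 7 to 9 had such a p, and 6 by the plain equal-variance test.

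Tbr1, a transcription factor of deep-layer cortical neurons, read 826, 681, 389, 384 and 796 in the heterozygous arrays and 355, 172, 105 and 275 in the WT-headed arrays, a difference of 1.43 ± 0.33. Slc17a7, the vesicular glutamate transporter of cortical neurons, read 1697, 1238, 1186, 742 and 2083 against 1011, 300, 218 and 885, a difference of 1.37 ± 0.38. Neurod2, a basic helix-loop-helix factor of cortical excitatory neurons, differed by 1.33 ± 0.33. Groups did not overlap for Tbr1. WT-headed arrays 1 and 4 stood above heterozygous array 4 for Slc17a7, and WT-headed array 1 stood above heterozygous arrays 3 and 4 for Neurod2. Nptx1, Rprm, Nrn1 and Emx1 differed by 0.95, 0.93, 0.92 and 0.89, and Slc30a3 and Mef2c by 0.55 and 0.46. Tshz2 was the exception at -0.33 ± 0.26.

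The summed intensity of the 10 markers was 16386, 14900, 12710, 10364 and 22976 in the heterozygous arrays. It was 11076, 7686, 5983 and 11232 in the WT-headed arrays, so that heterozygous array 4 fell between WT-headed arrays. The HOM-headed arrays spanned 4696 to 11356. Heterozygous array 5 stood furthest up, and like heterozygous arrays 1 and 3 it had all 10 markers above their mean over the 13 arrays. The mice differed in these markers within each group as well as between groups. In bulk tissue, the number of cells of a type in a sample and their RNA per cell cannot be told apart. How much cortex each sample held was not tested.

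**Figure D4:**
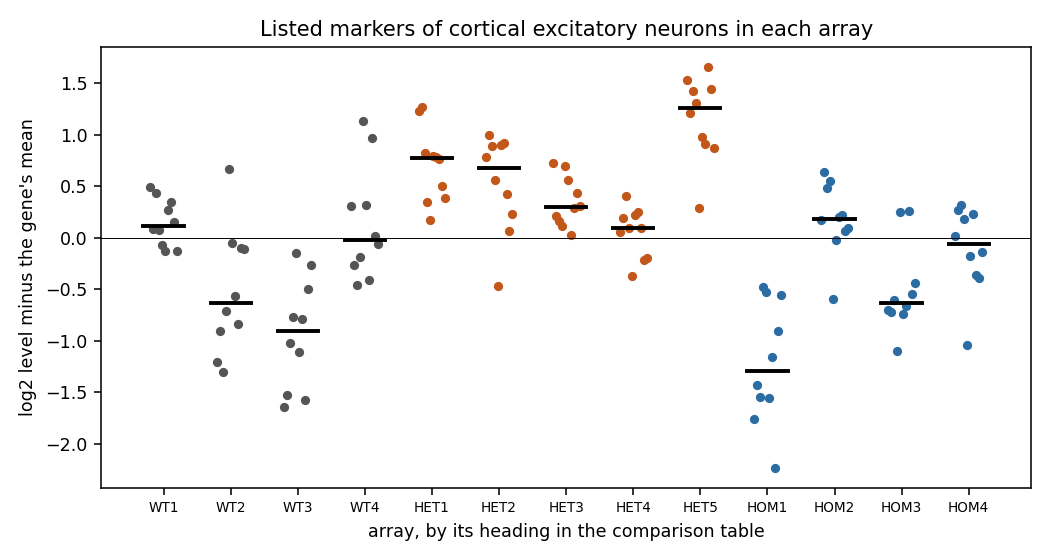
The 10 listed markers of cortical excitatory neurons in each array, as log2(intensity + 16) minus the marker's mean over all 13 arrays; the bar is the median of the 10. Heterozygous arrays have medians of 0.10 to 1.26, WT-headed arrays of -0.91 to 0.11, and HOM-headed arrays of -1.29 to 0.18.

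Markers of cortical layer 6b and the claustrum, a sheet of neurons between striatum and cortex, differed in the same direction. Of 8 genes 4 were listed and 3 had an unadjusted p under 0.05, with a list median of 1.30. These were Ctgf, Cplx3, a complexin of layer 6b that differed by 1.20 ± 0.31, and Nr4a2, a nuclear receptor, at 1.48 ± 0.49. Nxph4 differed by -0.19 ± 0.13. The summed intensity was 2108 to 3946 in the heterozygous and 815 to 1721 in the WT-headed arrays, without overlap, and 1298 to 3718 in the HOM-headed arrays. Ctgf, Ipcef1, the vesicle genes and the other neuronal groups below were compared on the same arrays as these markers, and the markers' part in those results was not tested.

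Markers of the striatum's own cells were mostly absent from the table. Of 30 medium spiny neuron markers only Arpp21 and Eya1 were listed, so that the defining ones, such as Drd1, Drd2, Ppp1r1b and Penk, were not measured here under a gene name. Arpp21, a cAMP-regulated phosphoprotein, differed by 0.34 ± 0.14 at its probe set with the smallest p, and Eya1 by 0.46 ± 0.13 without overlap. Eya1 read 327, 226, 317, 242 and 304 against 173, 205, 221 and 201. The labelled tissue could therefore not be checked against its defining markers.

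Of 17 interneuron markers 5 were listed and all 5 differences were positive. Among them 4 had an unadjusted p under 0.05, where the table's share is 14.5%. That count was 2 after median centring, 1 without WT-headed array 3, and 2 without heterozygous array 5 or WT-headed array 2. Npy, the peptide of somatostatin interneurons, read 3560, 3237, 3351, 3027 and 3579 in the heterozygous arrays and 2545, 2820, 2553 and 2293 in the WT-headed arrays. This was a difference of 0.39 ± 0.11 without overlap. Sst, its companion peptide, differed by 0.27 ± 0.11. Vip and Cck, which cortex also makes in quantity, differed by 0.86 ± 0.34 and 0.87 ± 0.35. Vip ranged from 284 to 1224 in the heterozygous arrays and was highest in array 5, the array with the highest cortical markers.

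Few non-neuronal markers were listed. Of 18 markers of endothelium, pericytes and smooth muscle the 2 listed were Tagln, given above at -0.86 without overlap, and Mylk, a kinase of smooth muscle myosin, at 0.18 ± 0.17, and Aldh1a2, the only listed marker of 13 for meninges and fibroblasts, differed by -0.19 ± 0.13. Gfap and Aldoc of astrocytes differed by 0.32 ± 0.19 and 0.20 ± 0.15, and Itgam and Fcrls of microglia by -0.17 ± 0.12 and -0.12 ± 0.11. All of these but Tagln had unadjusted p-values above 0.05 in limma. Of the neighbouring regions (septum, thalamus and hypothalamus) 4 of 14 markers were listed, 1 positive and 3 negative, with a median of -0.36 that was -0.07 without WT-headed array 2 and -0.58 without WT-headed array 1. Dlk1 and Baiap3, a secretory factor of hypothalamic and amygdalar neurons, were the negative ones with the smallest p. Baiap3 differed by -0.48 ± 0.24. No marker of oligodendrocytes, their precursors, choroid plexus or ependyma was listed, and Alas2, the only listed red blood cell marker, differed by 0.38 ± 0.35.

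Of 17 STEP substrates and upstream regulators only Grin2b, the gene of GluN2B, was listed. It read 2725, 2083, 2893, 2111 and 2361 in the heterozygous arrays and 1855, 2527, 2236 and 2043 in the WT-headed arrays. The groups overlapped widely and the difference was 0.16 ± 0.12, near the table's median.

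Of 35 genes of ionotropic glutamate receptors and their scaffolds 17 were listed, 14 of them with a positive difference. Only 3, all positive, had an unadjusted p under 0.05, where the table's share of higher probe sets is 14.5%. The count of 3 was 0 without WT-headed array 3 and 1 without heterozygous array 1 or 3 or WT-headed array 1. The list median of 0.16, close to the table's 0.14, was 0.10 without heterozygous array 3 or WT-headed array 1, and the latter left 11 positive. Dlgap1, a postsynaptic density protein, had the smallest p, at probe set 1443508_at. It read 260, 250, 259, 216 and 402 against 204, 180, 141 and 196, a difference of 0.56 ± 0.16 without overlap. Grik5, a kainate receptor subunit, differed by 0.27 ± 0.12. The list's median difference from the HOM-headed arrays was 0.31, and no table median is given for that contrast. Grm8, the single listed metabotropic receptor of 7, read 165, 146, 156, 146 and 156 against 110, 92, 101 and 125, a difference of 0.47 ± 0.12 without overlap.

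Of 33 other protein tyrosine phosphatase genes 11 were listed, 9 with a positive difference, and the list median was 0.18. There were 4 with an unadjusted p under 0.05, where the table's share is 14.5%. The median was 0.07, with 7 positive, without WT-headed array 1 and 0.27 without array 4 of either group, while the count of 4 was 4 or 5 with any single array left out. These 4 were all receptor-type phosphatases. Ptpru differed by 0.64 ± 0.19 and Ptprd by 0.38 ± 0.11 at the probe sets with their smallest p. Ptprk and Ptprt differed by 0.61 ± 0.21 and 0.42 ± 0.14. Ptprd read 2889, 3189, 2830, 2848 and 3304 against 2065, 2174, 2219 and 2831, with WT-headed array 4 just inside the heterozygous range. None passed the adjusted threshold. The list's median difference from the HOM-headed arrays was also positive, at 0.38.

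Of 15 feedback regulators of the MAP kinase pathway, the pathway on which STEP acts through ERK, 7 were listed and 5 had a positive difference. Only Dusp7, a phosphatase of ERK, had an unadjusted p under 0.05, with a difference of 0.30 ± 0.12. The list median was 0.13, and 0.06 without heterozygous array 3 or WT-headed array 1.

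Activity-regulated genes showed no common direction. Of 36 genes 27 were listed, the largest share of any list, with 14 positive and 13 negative differences and a median of 0.00. After median centring 11 were positive, and leaving out single arrays gave 9 to 18. Fos, the immediate early transcription factor, read 947, 1601, 1457, 547 and 862 against 934, 871, 1771 and 656, a difference of 0.03 ± 0.33. Arc and Egr1 differed by 0.00 ± 0.32 and 0.01 ± 0.14. These differences between groups were small beside the spread among mice within a group.

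Within this list 4 genes had an unadjusted p under 0.05 and they went both ways. Nr4a2, which is also a marker of layer 6b and the claustrum, and Bdnf, a neurotrophin made by cortical neurons, had positive differences of 1.48 ± 0.49 and 0.42 ± 0.20. Egr2, a zinc finger immediate early factor, and Scg2 had negative ones. Egr2 read 674, 924, 1002, 352 and 337 against 913, 1564, 1686 and 616, a difference of -0.87 ± 0.33 with overlap, and its second probe set differed by -0.81 ± 0.34. Fos, Arc, Egr1, Egr2 and Bdnf were chosen after their values were seen. Against the HOM-headed arrays, which share the same heterozygous mice, Fos differed by 1.31 and Egr2 by 0.92.

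Of 30 genes of vesicles and transmitter release 19 were listed, 17 with a positive difference. An unadjusted p under 0.05 was reached by 7 of these and by 1 negative one, where the table's shares are 14.5% and 1.88%. The median was 0.22, and leaving out single arrays gave 4 to 11 positive differences at an unadjusted p under 0.05, the fewest without heterozygous array 5 or WT-headed array 3. Stx1a, the plasma membrane SNARE syntaxin 1A, read 1256, 968, 911, 623 and 2018 against 916, 447, 413 and 598, a difference of 0.90 ± 0.26. Sv2b, a synaptic vesicle glycoprotein, read 4328, 3552, 3439, 2927 and 5048 against 2936, 2244, 2214 and 2761, a difference of 0.59 ± 0.14. Both were highest in heterozygous arrays 5 and 1, the same mice that were highest for the cortical markers. Bsn, Rims1 and Rph3a, proteins of the active zone and of vesicles, differed by 0.41 ± 0.14, 0.36 ± 0.13 and 0.37 ± 0.13. Unc13c, a priming factor, was the negative one at -0.32 ± 0.15. The same heterozygous arrays were also higher than the HOM-headed arrays, with a list median of 0.42, so they stood above both other groups.

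Of 24 genes of cholesterol synthesis and sulfation 15 were listed and all 15 had a positive difference. Of these, 6 had an unadjusted p under 0.05, where the table's share of higher probe sets is 14.5%. The list median was 0.21, and 0.19 after median centring. Without WT-headed array 1 it was 0.11, with 14 positive, where the table's median was 0.07, and leaving out single arrays gave 3 to 9 genes at an unadjusted p under 0.05, the fewest without heterozygous array 1 or 5 or WT-headed array 3. Apart from Sult2b1 none passed the adjusted threshold. Sqle, Fdft1 and Srebf2, which are squalene epoxidase, squalene synthase and the transcription factor of the pathway, differed by 0.28 ± 0.13, 0.26 ± 0.11 and 0.23 ± 0.11. Fdft1 separated the groups, with 1422, 1163, 1123, 1077 and 1219 against 886, 1057, 989 and 1068. Against the HOM-headed arrays the list's median difference was 0.31. With a table median of 0.14, most of the 15 genes lay close to what any listed probe set showed.

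The remaining lists were short or near the table's median. Of 8 listed striatal neuropeptide genes the 4 with an unadjusted p under 0.05 were the interneuron peptides above, while Cartpt differed by -0.67 ± 0.39. Among 6 listed potassium channel genes Kcnj3, an inward rectifier coupled to G proteins, differed by 0.67 ± 0.24. Gabra3 and Gabra5, GABA receptor subunits, differed by 0.40 ± 0.19 and 0.33 ± 0.15. Cnr1, the cannabinoid receptor, differed by 0.24 ± 0.14. Dkk3, a secreted member of the Dickkopf family, differed by 0.42 ± 0.16. The 7 listed stress genes and the 3 listed clock genes had medians of 0.09 and 0.10 with no member at an unadjusted p under 0.05 in limma, and the 3 listed ribosomal protein genes and 2 respiratory chain genes had medians of 0.19 and 0.12, likewise with none. Without WT-headed array 1 these 4 medians were 0.02, 0.05, 0.11 and 0.05.

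**Figure D5:**
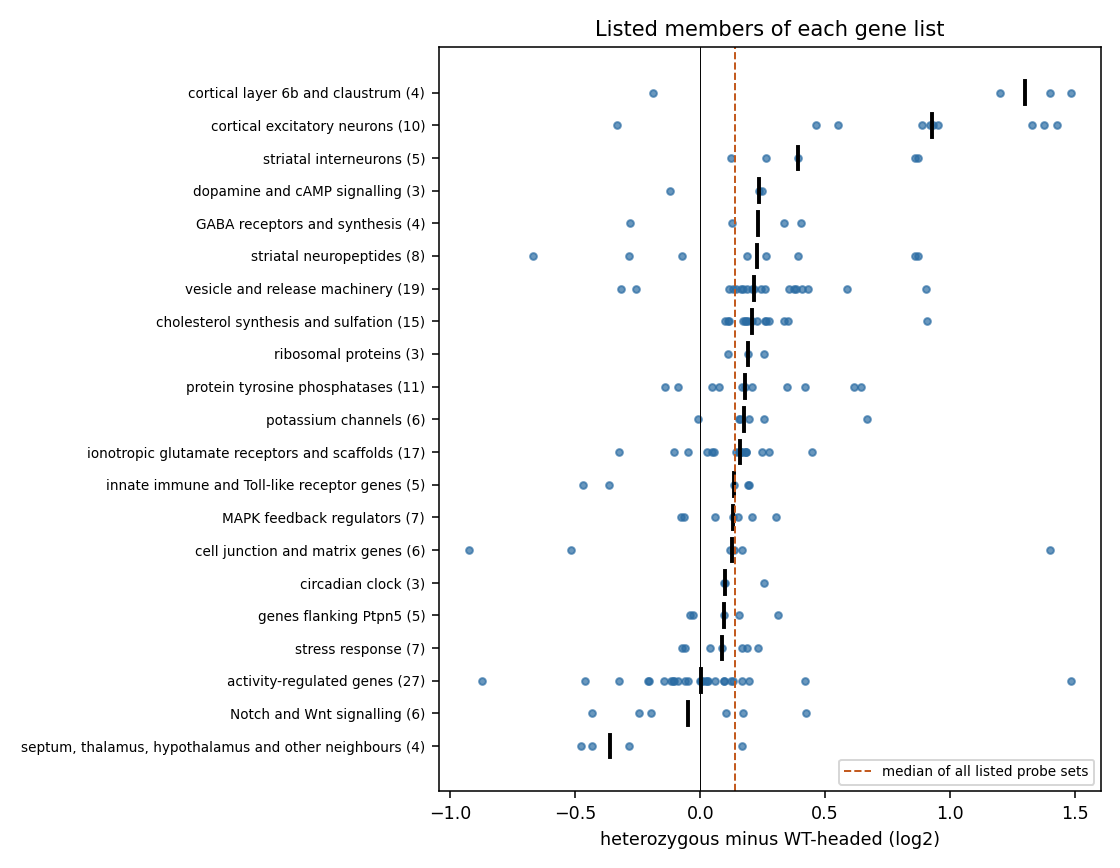
Difference of heterozygous minus WT-headed arrays (log2) for each listed member of the gene lists with at least 3 listed members, at the member's brightest probe set; the black bar is the list median, the dashed line the median of all listed probe sets (0.14), and the number of listed members follows each name. The 2 lists of cortical neurons lie furthest to the right, with medians of 1.30 and 0.93, and most other medians lie near the dashed line.

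Genes near Ptpn5 were read separately. Of the 20 protein-coding genes on either side, 5 were listed, namely Kcnc1, Sergef, Mrgpra1, Csrp3 and Nav2, and 3 had a positive difference, with a median of 0.10 that was 0.05 to 0.18 with single arrays left out, lowest without WT-headed array 1 or 3 and highest without heterozygous array 4. Nav2, a cytoskeletal protein of axon growth, was the one with an unadjusted p under 0.05. At its brighter probe set 1435981_at it differed by 0.31 ± 0.13. At 1442467_at it read 207, 181, 409, 157 and 346 against 149, 155, 143 and 11, a difference of 1.31 ± 0.37 that was 0.65 without WT-headed array 4. The difference at 1442467_at is thus carried in large part by 1 mouse. At 1435981_at that mouse read highest of the WT-headed arrays, at 617 against 421, 524 and 417, so its low value was particular to 1 probe set.

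In counts of genes without overlap, chromosome 7 as a whole was not set apart. Of 239 listed genes there, 6 were higher without overlap (2.51%) and 0 lower, against 54 of 2559 (2.11%) and 7 (0.274%) on the other chromosomes. The genes past the adjusted threshold, Ptpn5 and Sult2b1, both lie on chromosome 7. Without heterozygous array 5 and WT-headed array 4, the genes that passed were Ptpn5, Mesdc1, Gdpd3 and Folh1 of chromosome 7, and Ctgf and Spp1 of others. Some genes of chromosome 7 were uneven within the WT-headed group, and 3 of them were chosen after their values were seen. Gdpd3, a phosphodiesterase of lysophospholipids, read 20, 342, 21 and 706 in WT-headed arrays 1 to 4, 303 to 546 in the heterozygous arrays and 355 to 455 in the HOM-headed arrays. Mesdc1 (now Tlnrd1) read 45, 74, 64 and 118, against 99 to 250 in the heterozygous arrays, and Folh1, the glutamate carboxypeptidase that cleaves N-acetylaspartylglutamate, read 61, 82, 76 and 166 against 102 to 197. For all 3, WT-headed array 4 was the high array of its group. Their differences were 1.44 ± 0.55, 0.83 ± 0.20 and 0.59 ± 0.20, and those from the HOM-headed arrays were -0.24, -0.03 and 0.03.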

How the data were processed

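Striatal RNA of 13 mice was measured on Affymetrix arrays. The deposited values are linear intensities. PLIER is the tool named in the submitters' processing notes, with no version. The authors' comparison table holds 4423 probe sets that they selected on these mice, and the series' value table holds 45101. After 64 control probe sets were left out, 45037 were tested. The authors' fold and p columns were not used. Arrays have no read depth, so their number limits the precision.

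Intensities were turned into log2(intensity + 16), with no further normalization. Limma 3.58.1 (R 4.3.3) used all 13 arrays, a single genotype term, lmFit, and eBayes with its trend option. The contrast of the 5 heterozygous and 4 WT-headed arrays was adjusted by Benjamini-Hochberg over all 45037 probe sets, with 0.05 as the threshold, after a test on simulated data. Tables were handled in Python 3.11.15 with pandas 2.3.3.

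Of the listed probe sets 3581 have 1 gene symbol, 49 several and 793 none, and 3543 matched the RefSeq gene table of GRCm38.p6, used for names, chromosomes and gene order. The 34 gene lists, the genes and the tests were chosen with earlier results of these data known. Lists were counted at each gene's brightest probe set. Named were Ptpn5, Sult2b1, the 10 genes with the smallest p in each direction (mean log2 value over 6) and up to 2 genes per list. Nfib, Nfia, Pak7, Dsp, Spp1 and list members beyond these 2 were chosen after their values were seen. Alternatives covered offsets of 1 and 32, a brightness filter, normalization, blocks, weights, tests and samples. Some members of the gene lists are counted but not reported by name here.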

Additional observations from a re-analysis of the deposited data

Results flagged for a closer look

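In 148 groups of 4 or 5 arrays, made of the named probe sets in the heterozygous and the WT-headed arrays, 2 held an array far from the others of its group. Chance alone marks about 5 of every 100 such groups. Nav2 at probe set 1442467_at read 11 in WT-headed array 4 and 143 to 155 in the other WT-headed arrays, a gap of 0.962 of the group's whole range on the log2(intensity + 16) scale. The same array was the highest WT-headed one, at 617, at the brighter Nav2 probe set 1435981_at. Gabra5 at probe set 1433602_at read 743 in WT-headed array 2 and 524 to 534 in the other WT-headed arrays, a gap of 0.946 of the range on the same scale. Both genes lie on chromosome 7.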

How the results depend on the processing

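Of 45037 probe sets 3 passed the adjusted threshold as reported. This count was 12 with the replicate number as a block (8 higher, 4 lower) and 12 in a fit of only the 9 arrays (9 higher, 3 lower), 0 by the plain equal-variance test, 0 with the comparison table alone and 5708 with array weights (2144 higher, 3564 lower), which gave WT-headed array 3 a weight of 12 and array 1 one of 0.209. In the limma fit of only the 9 arrays the higher ones included Ctgf (adjusted p = 0.0015), Ipcef1, Tbr1 and Neurod2. The 3 lower ones were Dlk1 (adjusted p = 0.036) and Dsp at 2 probe sets. With the replicate number as a block, a fit that kept the HOM-headed arrays, Ctgf (limma adjusted p = 0.00079), Ipcef1 and Tbr1 also passed. So did Dlk1 and Dsp at 2 probe sets, while Neurod2 did not. Whether these genes passed thus depended on the model fitted, not only on the HOM-headed arrays entering the spread. The replicate numbers did not pair the arrays, whose deviations correlated by -0.31 to 0.183. Leaving out single arrays gave 0 to 7, being 0 without WT-headed array 4, 1 without heterozygous array 1 and 7 without WT-headed array 1. Leaving out heterozygous array 5 and WT-headed array 4 together, chosen after seeing the data, gave 7, and 2 with median centring.

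Probe sets higher at an unadjusted p under 0.05 numbered 921, 1520 with median centring, 591 by the plain test, 4478 with array weights, 559 in the comparison table alone, 2098 without the 2 arrays and centred, and 562 to 1570 without single arrays. Lower ones numbered 277, 145 among brighter probe sets, 1107 with quantile normalization, 1019 with centring, 161 by the plain test, 8660 with weights, 62 in the table alone, 1519 without the 2 arrays and centred, and 128 to 1199 without single arrays.

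The Ptpn5 differences of 1.05 and 0.97 did not pass by the plain test (adjusted p = 1 for both) or with the comparison table alone (1.05 and 0.97, adjusted p = 0.176 and 0.159). Single arrays left out gave 0.93 to 1.15 and 0.88 to 1.07. Sult2b1 did not pass with an offset of 32 (0.84, adjusted p = 0.0527), quantile normalization (0.86), median centring (0.88), the plain test (0.91), the table alone (0.91, adjusted p = 0.261) or without the 2 arrays (0.81, and 0.75 centred), and ranged from 0.82 to 1.02 without single arrays, with an adjusted p up to 0.474 in limma. Without the 2 arrays the exact permutation p was 0.0571 at differences of 1.11, 1.02 and 0.81, the smallest its splits allow. Grin2b turned to -0.012 with array weights. Among named genes 1487 other recomputed values kept their direction and side of the threshold and 72 newly passed it. Most of these 72 came from the fit with array weights, in which 5708 probe sets passed. All 390 list medians recomputed with other scalings or with arrays left out moved by less than the SD between mice. Leaving out 1 array can hardly move a median that far, so this says little about stability. Array weights and the replicate block were not among these settings. The weighted medians were -0.28 for activity-regulated genes, with 5 of 27 positive, and 1.59 for cortical excitatory neurons. The causes were not tested.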

Other observations

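Outside the comparison table, where probe sets carry no gene name here, 4 probe sets with the smallest p are given by ID. Probe set 1427017_at differed by 1.62 ± 0.39 (SE) and read 156 to 559 in the heterozygous and 47.7 to 302 in the WT-headed arrays. Probe set 1456487_at differed by 0.63 ± 0.16. In the lower direction 1429074_at differed by -0.54 ± 0.15 and 1416164_at by -0.49 ± 0.15. None passed the adjusted threshold in limma.

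A few further genes of the comparison table were chosen after their values were seen. Sox5, a factor of deep-layer cortical neurons, differed by 0.49 to 0.60 at 3 probe sets, of which 1 separated the groups. Zeb2, a zinc finger repressor, read 876, 970, 652, 722 and 872 in the heterozygous arrays and 528, 557, 592 and 550 in the WT-headed arrays at 1456389_at, a difference of 0.53 ± 0.13 without overlap, and its other probe sets differed by 0.42 and 0.28. Adcy1, a calmodulin-stimulated adenylyl cyclase, read 352, 407, 332, 369 and 471 against 305, 218, 219 and 326, a difference of 0.52 ± 0.14. Prss12, a neuronal serine protease of synapses, differed by 1.02 ± 0.24, with WT-headed array 1 at 440 and the other WT-headed arrays at 148 to 152.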
